A study of Danio rerio with 12 samples.

Results

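Nuclear genes of the oxidative phosphorylation system were followed in whole zebrafish embryos exposed to testosterone with or without calindol or EGCG. They were the protein-coding genes whose symbols begin with the stems for complex I (ndufa, ndufb, ndufc, ndufs, ndufv), complex II (sdha to sdhd), complex III (uqcr), complex IV (cox4 to cox8) and complex V (atp5). This gave 101 genes of the 32520 in the table, of which 88 encode subunits and 13 encode assembly factors or the ATP synthase inhibitor. Embryos of the wild-type AB strain were exposed from 2-4 hours after fertilisation until 3 days of age to the vehicle alone (0.1% DMSO, dimethyl sulfoxide) or to testosterone at 30 µM. In 2 further groups the same dose of testosterone was combined with calindol at 5 µM or with EGCG, the green tea polyphenol epigallocatechin gallate, at 100 µM; these are called the calindol group and the EGCG group below. The study's design text calls EGCG a strong and calindol a weak antagonist of GPRC6A, a membrane receptor, and asks which genes testosterone controls through that receptor. Each group held 3 libraries, 1 from each of clutches 1, 2 and 4, and values listed in threes below follow that order. No group received calindol or EGCG without testosterone, so the effect of each compound alone and its effect on the response to testosterone cannot be told apart.

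Oxidative phosphorylation makes ATP in mitochondria. Complexes I and II pass electrons from NADH and succinate to ubiquinone, complex III passes them to cytochrome c, complex IV passes them to oxygen, and complex V, the ATP synthase, uses the proton gradient built by complexes I, III and IV. These complexes combine proteins made from the mitochondrial genome with proteins encoded in the nucleus, except complex II, which is entirely nuclear. Muscle, heart and nervous tissue are rich in these complexes. Genes for the nuclear subunits are known to be controlled in part together, through transcription factors such as Nrf1 and coactivators of the PGC-1 family.

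Library totals ran from 8181295 counts in the EGCG library of clutch 1 to 22510680 in the testosterone library of clutch 4, and the 101 genes took 1.14% to 1.38% of the counts. Of the 88 subunit genes, 75 had enough counts to be tested: 28 of 36 in complex I, 4 of 5 in complex II, 7 of 8 in complex III, 19 of 22 in complex IV (counting the ndufa4 family, now placed there) and all 17 in complex V. The 14 genes left untested (ndufa1, ndufa4, ndufa4l2b, ndufa8, ndufa12, ndufb4, ndufb5, ndufb9, ndufs1, ndufs4, sdhc, uqcrq, cox7a2l and atp5if1b) reached at most 10 counts in any library, and 7 of them had 0 counts throughout. Several of these encode subunits that every respiring cell needs, and uqcrb, another such gene, stayed between 0.108 and 0.716 CPM (counts scaled per library) although it was tested. The 13 subunit genes carried by mitochondrial DNA were likewise listed at 0 in every library, so these genes can be described only as listed at 0 or nearly 0. The other subunits were well covered: 66 of the 75 had at least 100 counts in every library, and the median biological coefficient of variation of the tested subunits was 7.18%, compared with 13.1% as the common value of all genes. CPM values are given on the TMM-scaled library size and are compared between libraries for 1 gene, not between genes, because the table gives no gene length.

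Across the 4 groups the median level over the subunits was lowest with testosterone or with testosterone and EGCG, and highest with testosterone and calindol. The calindol group had the highest mean in 60 of the 75 subunits (80%), compared with 35.2% of all 20237 tested genes. The testosterone group had the highest mean in none of the subunits (17.1% of all tested genes). It had the lowest in 29, while the EGCG group had the lowest in 37. How often each group was lowest over all genes was not computed. Relative to the DMSO mean, the median log2 level over the subunits was -0.183, -0.0954 and -0.0808 in the testosterone libraries, 0.158, 0.0535 and 0.18 in the calindol libraries, and -0.142, -0.16 and -0.0916 in the EGCG libraries. By this median every calindol library thus lay above, and every testosterone or EGCG library below, the 3 DMSO libraries, which spanned -0.00314 to 0.016. Summed over the 75 subunits, CPM was 13530, 12320 and 13520 with calindol and 13190, 12630 and 12870 with DMSO, so these sums overlapped. In whole embryos fewer cells of a type rich in mitochondria and less RNA per cell cannot be told apart.

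**Figure D1:**
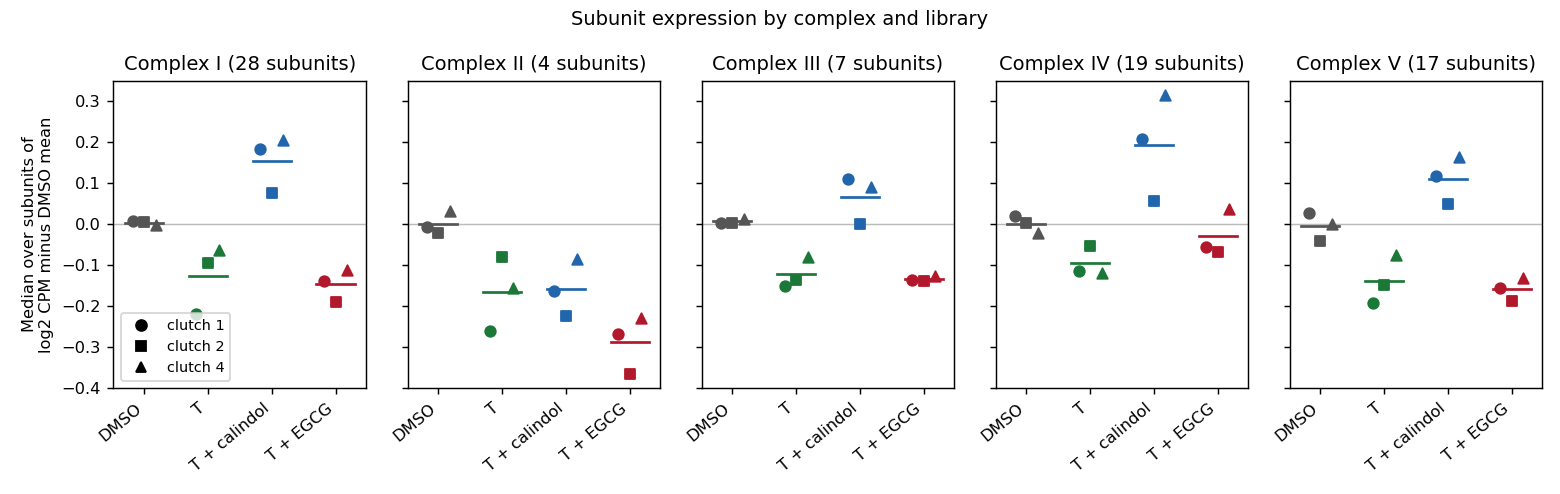
Median over the tested subunits of each complex of the log2 CPM minus the mean log2 CPM of the DMSO libraries, with 1 point per library (circle, square and triangle for clutches 1, 2 and 4) and the group mean as a bar. In complexes I, IV and V the 3 libraries with testosterone and calindol lie above the DMSO libraries, in complex II they lie below them, and the testosterone libraries lie below them in all 5 complexes.

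Testosterone alone moved the subunits down by a small amount, with few single genes passing the test. The median log2 fold change against DMSO was -0.12 over the 75 subunits (0.0015 over all tested genes), and 11 of them were above 0 (50.3% of all genes). With edgeR's quasi-likelihood test and an adjusted p under 0.05, 3 subunits fell, all in complex V, and 0 rose; over all tested genes 3.39% fell and 2.93% rose. At an unadjusted p under 0.05 the counts were 22 lower and 0 higher, and DESeq2 called 5 lower and 0 higher. In 30 subunits the 3 testosterone libraries lay entirely below the 3 DMSO libraries (13% of all genes), and in 0 entirely above (13.4%). Within clutches 1, 2 and 4 the median was -0.186, -0.0993 and -0.0861. The number of subunits that fell was 1 without the DMSO library of clutch 1 or 4 or the testosterone library of clutch 1 or 4.

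Embryos given calindol with testosterone had higher subunit transcripts than embryos given testosterone alone, in most subunits of complexes I, IV and V. The median log2 fold change was 0.26 (0.0078 over all tested genes), the quartiles of the subunits were 0.155 and 0.306 where those of all genes were -0.281 and 0.258, and 69 of 75 were above 0 (50.8% of all genes). Of the 75 subunits, 39 rose and 0 fell with edgeR's quasi-likelihood test, while 11% of all tested genes rose and 14.8% fell. No subunit was lower at an unadjusted p under 0.05, and DESeq2 called 41 higher and 0 lower. In 45 subunits the calindol libraries lay entirely above those of testosterone (17.3% of all genes) and in 1 entirely below (19%). The calls were spread over complex I (16 of 28), complex IV (11 of 19), complex V (9 of 17), complex III (2 of 7) and complex II (1 of 4). Within clutches 1, 2 and 4 the median was 0.342, 0.134 and 0.245, so the difference was smallest in clutch 2. The count was between 29 and 43 when any 1 library was left out, and 24 when the dependence of the counts on gene span, described at the end, was removed.

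Compared with DMSO, the calindol group had some subunits higher and a few lower. The median log2 fold change was 0.13 (0.0092 over all tested genes), 14 subunits rose and 4 fell, and 11.5% of all tested genes rose and 15.9% fell. The log2 fold change was above 0 in 64 of 75 (50.9% of all genes). The calindol libraries lay entirely above those of DMSO in 30 subunits (20.3% of all genes) and entirely below in 5 (22.7%). The genes that rose were in complex IV (6), complex I (5) and complex V (3). Those that fell were sdha, uqcrfs1, atp5f1b and atp5fa1, all of which belong to the catalytic cores of their complexes. Core subunits also rose: ndufs3 by 0.27 (adjusted p = 0.013 by edgeR) and atp5f1c by 0.22 (adjusted p = 0.0268). These rises were lost under 3 and 7 of 20 alternatives. Within clutches 1, 2 and 4 the median was 0.167, 0.0524 and 0.181. The count of higher subunits was 8 without the DMSO library of clutch 1, 8 without that of clutch 2, 6 without that of clutch 4 and 9 without the calindol library of clutch 4. After removal of the gene span trend 2 rose and 6 fell (11.7% and 14% of all genes, both larger shares than among the subunits) and the median was 0.0281, so the direction of the majority of calls against DMSO depended on that setting.

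EGCG with testosterone left the subunits near the level of testosterone alone. Against DMSO 14 subunits fell and 0 rose (9.33% and 7.69% of all tested genes), with a median log2 fold change of -0.14 (0.0025 over all tested genes); 3 subunits were higher at an unadjusted p under 0.05, and DESeq2 called 14 lower and 0 higher. The log2 fold change was above 0 in 14 of 75 (50.3% of all genes). The EGCG libraries lay entirely below those of DMSO in 39 subunits (21.6% of all genes) and entirely above in 1 (21.4%). Complex I had 6 of the genes that fell, complexes III and V had 3 each, complex II had 2, and complex IV had 0. The 3 calls in complex III were 0 with DESeq2 size factors, with library totals and with the gene span trend removed. For complex IV 2 subunits were lower and 3 higher at an unadjusted p under 0.05, and DESeq2 called 0 in both directions. The count of 14 was 6 without the DMSO library of clutch 1 or 2, 8 without that of clutch 4, and 8, 5 and 9 without the EGCG library of clutch 1, 2 and 4. Fitted on the 6 libraries compared, 24 fell and 2 rose, and within clutches 1, 2 and 4 the median was -0.163, -0.159 and -0.0552.

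Set against testosterone alone, the subunits differed little in the EGCG group. The median log2 fold change was -0.013 (-0.018 over all tested genes), and 34 of 75 were above 0 (47.6% of all genes). Of the subunits 2 fell, among them atp5meb, and 0 rose, and 5.59% of all tested genes fell and 6.05% rose. At an unadjusted p under 0.05, 5 were lower and 1 higher, and DESeq2 called 2 lower and 0 higher. The EGCG libraries lay entirely below those of testosterone in 8 subunits (15.9% of all genes) and entirely above in 3 (15.8%). Within clutches 1, 2 and 4 the median was 0.0339, -0.0877 and -0.0283. The clutch block left 1 of the 2 calls. Leaving out a DMSO library, the testosterone library of clutch 4 or the calindol library of clutch 4 also left 1. None was left without the testosterone library of clutch 2 or the EGCG library of clutch 1 or 2, and 2 and 1 subunits rose without the testosterone library of clutch 1 and of clutch 4.

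The most subunits differed between the groups that received the different compounds with testosterone. Against calindol, EGCG embryos had 52 of 75 subunits lower and 0 higher, with a median log2 fold change of -0.26 (-0.0645 over all tested genes); 22% of all tested genes were lower and 21.1% higher. The log2 fold change was above 0 in 8 of 75 (45.3% of all genes). The EGCG libraries lay entirely below those of calindol in 53 subunits (28.7% of all genes) and entirely above in 1 (24.9%). At an unadjusted p under 0.05, 56 were lower and 2 higher, and DESeq2 called 45 lower and 1 higher. Complex I had 23 of its 28 tested subunits lower, complex V 12 of 17, complex IV 11 of 19, complex III 4 of 7 and complex II 2 of 4. Within clutches 1, 2 and 4 the median was -0.299, -0.223 and -0.279. The count was 34 with library totals in place of TMM scaling and 18 lower with 2 higher after removal of the gene span trend, a setting in which 20.4% of all genes were lower and 19.9% higher, so that the share of lower subunits was then near the background. EGCG was used at 100 µM and calindol at 5 µM, so the compounds were not compared at matched doses.

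**Figure D2:**
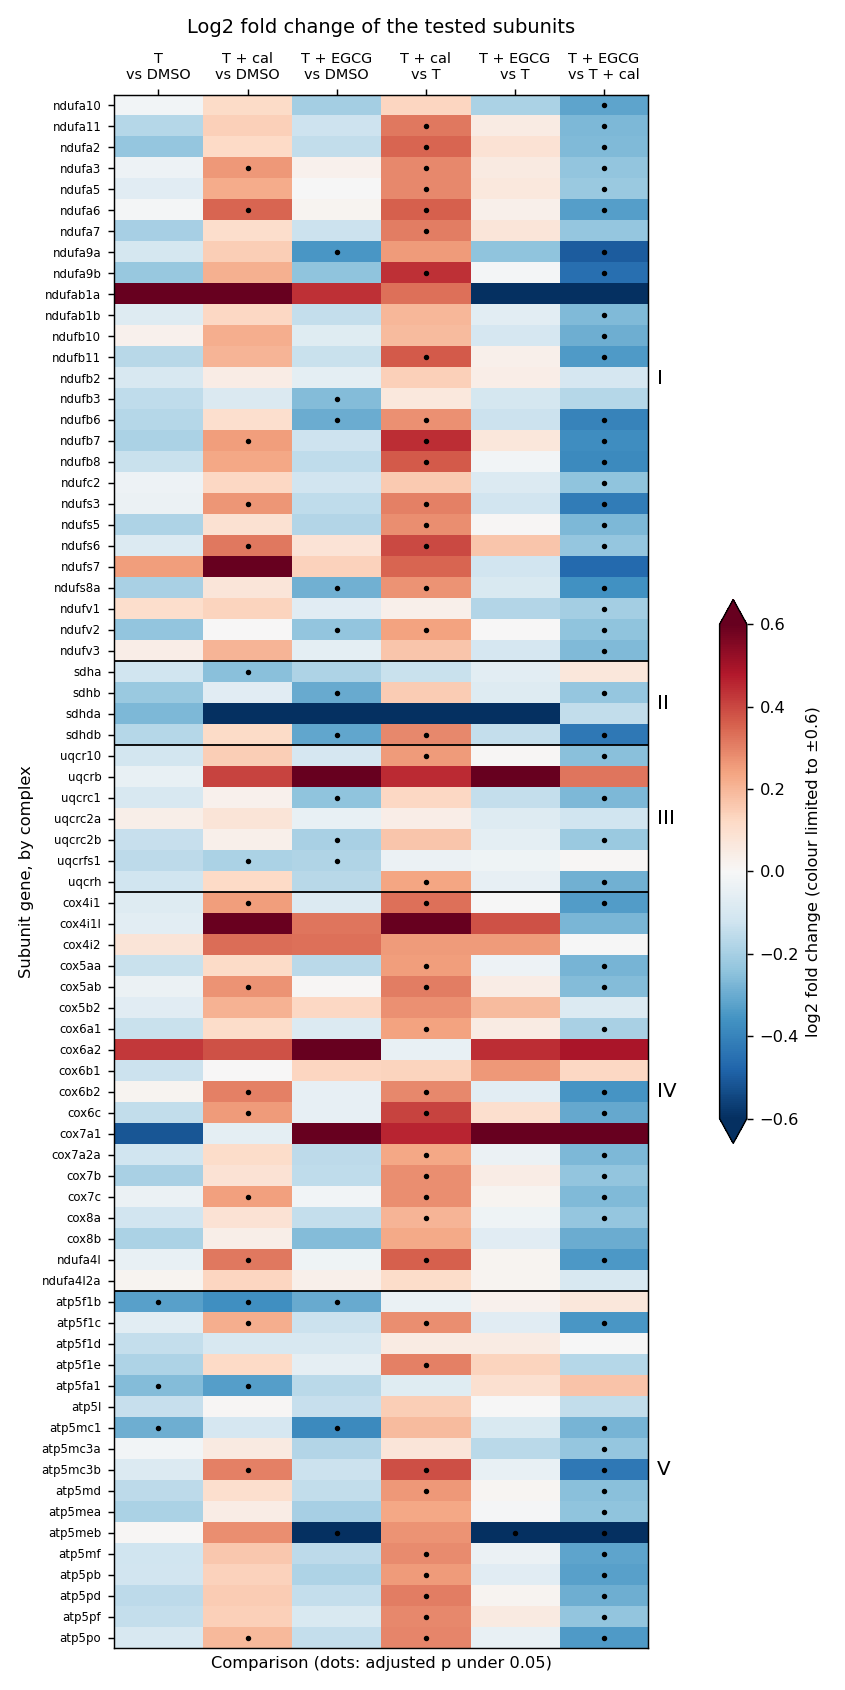
Log2 fold change of 74 of the tested subunits (rows, grouped by complex I to V) in the 6 comparisons (columns), from edgeR on all 12 libraries, with red for higher and blue for lower in the group named first and a dot where the adjusted p was under 0.05. Dots fill most rows of complexes I, IV and V in the column of calindol against testosterone (39 in all) and of EGCG against calindol (51 of those shown), while sdha, atp5f1b and atp5fa1 are blue in the 3 columns against DMSO.

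Complex I, the NADH dehydrogenase, differed most uniformly between the calindol group and the other groups given testosterone. All 28 tested subunits had a log2 fold change above 0 with calindol against testosterone, and all 28 were below 0 in EGCG against calindol. ndufb7, an accessory subunit on the intermembrane face, was at 86.0, 83.3 and 87.8 CPM with DMSO, 68.7, 76.5 and 79.8 CPM with testosterone, 103, 93.5 and 110 CPM with added calindol and 83.3, 76.5 and 76.9 CPM with added EGCG. Its calindol libraries lay above all others and its testosterone libraries below those of DMSO. The change against testosterone was 0.44 ± 0.078 (log2 fold change ± SE, adjusted p = 0.000923 by edgeR) and that of EGCG against calindol was -0.37 ± 0.078 (adjusted p = 0.00139). ndufa6, an accessory subunit of the LYR protein family, rose with calindol against DMSO (0.35 ± 0.077, adjusted p = 0.00351) and against testosterone (0.36 ± 0.077, adjusted p = 0.00338), and both calls held under all 20 alternatives. Its libraries were at 87.5, 83.2 and 92.9 CPM with DMSO, 87.3, 92.6 and 81.4 CPM with testosterone and 115, 104 and 116 CPM with calindol, so the testosterone and vehicle libraries overlapped and the calindol libraries lay above both.

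The core subunits of complex I, which hold the flavin and the iron-sulfur clusters or bind ubiquinone, were not all called in the same comparisons. ndufs3, of the arm that reaches into the matrix, rose with calindol against testosterone (0.30 ± 0.073, adjusted p = 0.00681) and was lower with EGCG than with calindol (-0.42 ± 0.073, adjusted p = 0.000356). ndufs8a, a carrier of iron-sulfur clusters, was at 199, 180 and 193 CPM with DMSO, 164, 171 and 166 CPM with testosterone, 199, 191 and 213 CPM with calindol and 161, 151 and 157 CPM with EGCG. Its EGCG libraries lay below all others and its testosterone libraries below those of DMSO and calindol, which overlapped. It fell with EGCG against DMSO (-0.29 ± 0.065, adjusted p = 0.00863) and rose with calindol against testosterone (0.27 ± 0.065, adjusted p = 0.00726). ndufv2, which holds an iron-sulfur cluster of the NADH module, fell with EGCG against DMSO (-0.24, adjusted p = 0.0443), a call lost without any 1 of the 6 libraries compared (adjusted p = 0.101, 0.106 and 0.112 without the DMSO library of clutch 1, 2 and 4, and 0.131, 0.125 and 0.0603 without that of EGCG). Like ndufs3 and ndufs8a, ndufv2 rose with calindol against testosterone (0.24, adjusted p = 0.0292 by edgeR). It was also lower with EGCG than with calindol (-0.24, adjusted p = 0.0194). These 2 calls were lost under 5 and 6 of 20 alternatives. ndufv1, which binds NADH, had a log2 fold change of 0.03 with calindol against testosterone (adjusted p = 0.793). It was lower with EGCG than with calindol (-0.20, adjusted p = 0.0263), a call lost under 7 of 20 alternatives. ndufs7, at 1.51 to 5.65 CPM, had log2 fold changes of 0.25 or 0.60 against DMSO that did not pass, and what limited its test was not tested.

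Paralogs of complex I accessory genes were not all called in the same comparisons. ndufa9a, 1 of 2 copies of a subunit that holds a nucleotide cofactor, was at 132, 133 and 134 CPM with DMSO, 118, 123 and 130 CPM with testosterone, 147, 133 and 163 CPM with calindol and 89.6, 104 and 119 CPM with EGCG. The EGCG libraries lay below those of DMSO and calindol and overlapped those of testosterone by 1 library. It was lower with EGCG than with calindol by a log2 fold change of -0.50 ± 0.096 (adjusted p = 0.000743), and its copy ndufa9b changed by -0.45 ± 0.089 (adjusted p = 0.000937). With calindol against testosterone ndufa9b rose by 0.44 ± 0.088 (adjusted p = 0.00231), while ndufa9a had a log2 fold change of 0.26 that missed the threshold (adjusted p = 0.0609); the difference between the copies was not tested. ndufs6, a zinc-binding accessory subunit, rose with calindol against testosterone (0.40 ± 0.09, adjusted p = 0.00469). ndufab1a, a copy of the mitochondrial acyl carrier protein, ranged from 0.38 to 13.8 CPM without following the groups, and its calindol libraries alone held 0.38, 12.6 and 13.8 CPM.

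Complex II, succinate dehydrogenase, which also belongs to the tricarboxylic acid cycle, did not rise with calindol as a complex. sdha, the flavoprotein that oxidises succinate, was at 243, 231 and 240 CPM with DMSO, 221, 217 and 220 CPM with testosterone, 206, 188 and 205 CPM with calindol and 198, 215 and 216 CPM with EGCG. All 9 exposed libraries were below the 3 DMSO libraries, and the calindol libraries were below those of testosterone. The decrease against DMSO passed with calindol (-0.25 ± 0.063, adjusted p = 0.00749) and held under all 20 alternatives; the log2 fold change was -0.12 with testosterone (adjusted p = 0.307) and -0.18 with EGCG (adjusted p = 0.057). sdhb, the iron-sulfur subunit, fell with EGCG against DMSO (-0.30 ± 0.069, adjusted p = 0.00955), a call that was lost without the DMSO library of clutch 1 (adjusted p = 0.0521) or the EGCG library of clutch 2 (adjusted p = 0.0519). sdhdb, a membrane anchor, was at 81.2, 83.9 and 86.8 CPM with DMSO, 69.4, 82.3 and 72.1 CPM with testosterone, 93.7, 81.8 and 97.8 CPM with calindol and 70.2, 63.9 and 68.9 CPM with EGCG. In this gene, unlike sdha, the calindol libraries were the highest in clutches 1 and 4, and EGCG against calindol gave -0.43 ± 0.085 (adjusted p = 0.000895). The anchor copy sdhda stayed at 0.237 to 1.43 CPM.

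In complex III, the cytochrome bc1 complex, 2 of 7 tested subunits rose with calindol against testosterone and 3 fell with EGCG against DMSO. uqcrfs1, the Rieske iron-sulfur protein, was at 272, 275 and 277 CPM with DMSO, 253, 248 and 239 CPM with testosterone, 245, 229 and 249 CPM with calindol and 250, 238 and 240 CPM with EGCG. Every exposed library was below every DMSO library, and the 3 exposed groups overlapped each other. The call with calindol (-0.19 ± 0.059, adjusted p = 0.0264) was lost without the DMSO library of clutch 1 (adjusted p = 0.0597), 2 (0.0664) or 4 (0.0822) or the calindol library of clutch 2 (0.089). With EGCG (-0.18, adjusted p = 0.0468) it was lost without any 1 of 7 libraries: those of DMSO in clutch 1 (0.101), 2 (0.115) and 4 (0.12), of calindol in clutch 4 (0.0537), and of EGCG in clutch 1 (0.071), 2 (0.145) and 4 (0.107). The core proteins uqcrc1 and uqcrc2b were lower with EGCG than with calindol (-0.27 ± 0.071, adjusted p = 0.00714, and -0.22 ± 0.062, adjusted p = 0.00924), and the paralog uqcrc2a was not called (-0.12, adjusted p = 0.139). The small subunits uqcrh, the acidic hinge protein, and uqcr10 were the 2 that rose with calindol against testosterone, by 0.24 ± 0.069 and 0.25 ± 0.068 (adjusted p = 0.0207 and 0.0127). For uqcrh that call was lost without the testosterone library of clutch 1 (adjusted p = 0.0608) or the calindol library of clutch 1 (adjusted p = 0.0783). In all, the uqcrh call was lost under 5 of 20 alternatives and that of uqcr10 under 3.

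In complex IV, cytochrome c oxidase, 11 of 19 tested subunits rose with calindol against testosterone. cox4i1, the largest nuclear subunit, was at 373, 375 and 356 CPM with DMSO, 321, 359 and 364 CPM with testosterone, 452, 406 and 457 CPM with calindol and 355, 334 and 355 CPM with EGCG. The calindol libraries stood above all 9 others. Those of EGCG lay below those of DMSO, the closest at 355 and 356 CPM, and the testosterone libraries overlapped both. cox4i1 was higher with calindol than with testosterone by 0.33 ± 0.07 (adjusted p = 0.00307 by edgeR). It was lower with EGCG than with calindol (-0.33 ± 0.07, adjusted p = 0.00142), and both calls held under all 20 alternatives. ndufa4l, of the ndufa4 family that associates with complex IV, was at 243, 252 and 268 CPM with DMSO, 236, 252 and 252 CPM with testosterone, 331, 289 and 331 CPM with calindol and 248, 236 and 264 CPM with EGCG. It was higher with calindol than in each other group, by 0.32 ± 0.073 against DMSO (adjusted p = 0.00435) and 0.36 ± 0.073 against testosterone (adjusted p = 0.00228), and these calls too held under all 20 alternatives. cox6c, a small membrane subunit, rose by 0.40 ± 0.067 against testosterone (adjusted p = 0.000642), from 134, 149 and 140 to 180, 184 and 196 CPM.

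Isoform families of complex IV differed in which copies passed the test. cox5aa and cox5ab, copies of the matrix-facing subunit 5a, rose with calindol against testosterone by 0.25 and 0.31 (adjusted p = 0.00934 and 0.0175), the latter lost without the testosterone library of clutch 1 (adjusted p = 0.0548) or the calindol library of clutch 4 (adjusted p = 0.0757). In all, these calls were lost under 2 and 5 of 20 alternatives. cox4i2, which in mammals is the isoform of lung and of low oxygen, was at 22.3, 22.5 and 22.1 CPM with DMSO, 22.8, 19.2 and 28.4 CPM with testosterone, 27.4, 27.8 and 29.2 CPM with calindol and 31.8, 27.8 and 25.2 CPM with EGCG. Its calindol and EGCG libraries were all above those of DMSO, with log2 fold changes of 0.33 in both that missed the threshold (adjusted p = 0.0616 and 0.086). cox6a2 and cox7a1, the muscle isoforms of mammals, stayed between 1.53 and 4.68 CPM and between 0 and 1.85 CPM, and neither was called in any comparison, nor were cox4i1l, cox5b2 and ndufa4l2a. Their counterparts cox6a1 and cox7a2a rose with calindol against testosterone by 0.24 and 0.23 (adjusted p = 0.0192 and 0.02). Both calls were lost without the testosterone library of clutch 1 (adjusted p = 0.0552 and 0.0564), that of cox6a1 also without the calindol library of clutch 4 (0.0534) and that of cox7a2a without the calindol library of clutch 1 (0.0591). cox6b1, at 50.2 to 81.3 CPM, was not called either, while cox6b2 rose with calindol against DMSO by 0.30 ± 0.081 (adjusted p = 0.0119) but not without the DMSO library of clutch 4 (adjusted p = 0.0696). cox8a and cox8b had log2 fold changes of 0.20 (adjusted p = 0.0489) and 0.23 (adjusted p = 0.259) with calindol against testosterone; the former was lost under 15 of 20 alternatives. Among these were omissions of the library of DMSO in clutch 2 (adjusted p = 0.0567) and 4 (0.068), of testosterone in clutch 1 (0.0897) and 4 (0.124), of calindol in clutch 1 (0.111) and 4 (0.123), and of EGCG in clutch 1 (0.0536), 2 (0.0532) and 4 (0.0551).

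Complex V held 2 of the 4 subunits that fell with calindol against DMSO, next to 3 that rose. atp5f1b, the catalytic beta subunit of the F1 head, was at 1840, 1730 and 1710 CPM with DMSO, 1410, 1440 and 1360 CPM with testosterone, 1430, 1260 and 1390 CPM with calindol and 1380, 1460 and 1440 CPM with EGCG. All 9 exposed libraries lay well below the 3 DMSO libraries, and the exposed groups overlapped each other. It fell by 0.33 ± 0.064 with testosterone (adjusted p = 0.00649), by 0.37 ± 0.064 with calindol (adjusted p = 0.000646) and by 0.30 ± 0.064 with EGCG (adjusted p = 0.0063), and each of these calls held under all 20 alternatives; the 3 comparisons share the DMSO libraries. atp5fa1, the alpha subunit that alternates with beta, was at 1510, 1320 and 1440 CPM with DMSO, 1210, 1180 and 1180 CPM with testosterone, 1200, 1020 and 1170 CPM with calindol and 1270, 1280 and 1260 CPM with EGCG. Here too every exposed library was below every DMSO library. The decrease was -0.33 ± 0.071 with calindol (adjusted p = 0.00287, held under all 20 alternatives) and -0.26 ± 0.071 with testosterone (adjusted p = 0.0437), and the EGCG value of -0.16 was not called (adjusted p = 0.13). The testosterone call was lost without any 1 of 8 libraries: those of DMSO in clutch 1 (adjusted p = 0.19) and 4 (0.147), of testosterone in clutch 1 (0.0737), 2 (0.088) and 4 (0.102), and of EGCG in clutch 1 (0.0614), 2 (0.064) and 4 (0.0518).

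Among the other subunits of the F1 head and the stalk, atp5f1c and atp5po rose with calindol against DMSO, by 0.22 and 0.20 (adjusted p = 0.0268 and 0.0422). Both calls were lost without the DMSO library of clutch 1 (adjusted p = 0.0698 and 0.0806), 2 (0.0964 and 0.116) or 4 (0.0533 and 0.112) or the calindol library of clutch 1 (0.0894 and 0.106) or 4 (0.0648 and 0.0955). atp5f1c, the gamma subunit that turns inside the head, was at 428, 414 and 438 CPM with DMSO, 404, 407 and 416 CPM with testosterone, 531, 453 and 506 CPM with calindol and 387, 374 and 410 CPM with EGCG. The calindol libraries were above, and the EGCG libraries below, all DMSO libraries. It rose with calindol against testosterone by 0.28 ± 0.068 (adjusted p = 0.00754) and was lower with EGCG than with calindol by -0.35 ± 0.068 (adjusted p = 0.000876). atp5po, the subunit that ties the head to the stator stalk, and atp5f1e, the epsilon subunit, rose with calindol against testosterone by 0.29 ± 0.068 and 0.30 ± 0.068 (adjusted p = 0.00518 and 0.00461). The delta subunit atp5f1d had a log2 fold change of 0.05 against testosterone (adjusted p = 0.658) and -0.09 against DMSO (adjusted p = 0.364). Differences between subunits were not tested.

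In the membrane part of complex V, the c subunit that forms the rotor ring is encoded by several genes that give the same mature protein in mammals. atp5mc3b was at 576, 537 and 595 CPM with DMSO, 531, 561 and 521 CPM with testosterone, 707, 668 and 730 CPM with calindol and 487, 499 and 577 CPM with EGCG. Its calindol libraries lay above all others, and calindol against testosterone gave 0.38 ± 0.075 (adjusted p = 0.00177). atp5mc1 was at 348, 326 and 362 CPM with DMSO, 269, 296 and 280 CPM with testosterone, 315, 295 and 355 CPM with calindol and 257, 263 and 274 CPM with EGCG. For this copy all testosterone and EGCG libraries lay below those of DMSO, and the calindol libraries overlapped those of DMSO and testosterone. Against DMSO the EGCG group changed by -0.38 ± 0.075 (adjusted p = 0.00402), a call that held under all 20 alternatives. The testosterone decrease of -0.29 ± 0.075 (adjusted p = 0.0311) was lost without the DMSO library of clutch 1 (adjusted p = 0.106) or 4 (0.138) or the testosterone library of clutch 1 (0.0914) or 4 (0.0787). The third copy, atp5mc3a, was called only in EGCG against calindol (-0.23, adjusted p = 0.0226), which was lost without the calindol library of clutch 4 (adjusted p = 0.0914) or the EGCG library of clutch 1 (0.072). In all, that call was lost under 6 of 20 alternatives, with the highest adjusted p (0.485 by edgeR) after removal of the gene span trend.

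atp5meb, 1 of 2 copies of subunit e, which helps pair ATP synthases into dimers, had the largest log2 fold change of the called subunits in EGCG against calindol. Its libraries were at 41.0, 37.7 and 32.7 CPM with DMSO, 27.0, 42.9 and 41.2 CPM with testosterone, 48.0, 39.0 and 47.9 CPM with calindol and 23.6, 21.5 and 28.1 CPM with EGCG. The EGCG libraries were low, and the testosterone library of clutch 1 lay within their range. EGCG was below calindol by -0.88 ± 0.16 (adjusted p = 0.000515), held under all 20 alternatives. The decreases of -0.60 against DMSO (adjusted p = 0.0208) and -0.61 against testosterone (adjusted p = 0.0272) each depended on 4 libraries. The first was lost without the DMSO library of clutch 1 (adjusted p = 0.0861) or 2 (0.0659) or the EGCG library of clutch 1 (0.0678) or 2 (0.0995), and the second without the testosterone library of clutch 2 (0.121) or 4 (0.0724) or the EGCG library of clutch 1 (0.0926) or 2 (0.127). Its copy atp5mea, at 29.0 to 38.7 CPM, had a log2 fold change of -0.24 in EGCG against calindol (adjusted p = 0.0371), lost without the DMSO library of clutch 4 (adjusted p = 0.0523), the calindol library of clutch 1 (0.0766) or 4 (0.112) or the EGCG library of clutch 2 (0.0757) or 4 (0.145). In all, the atp5mea call was lost under 11 of 20 alternatives.

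**Figure D3:**
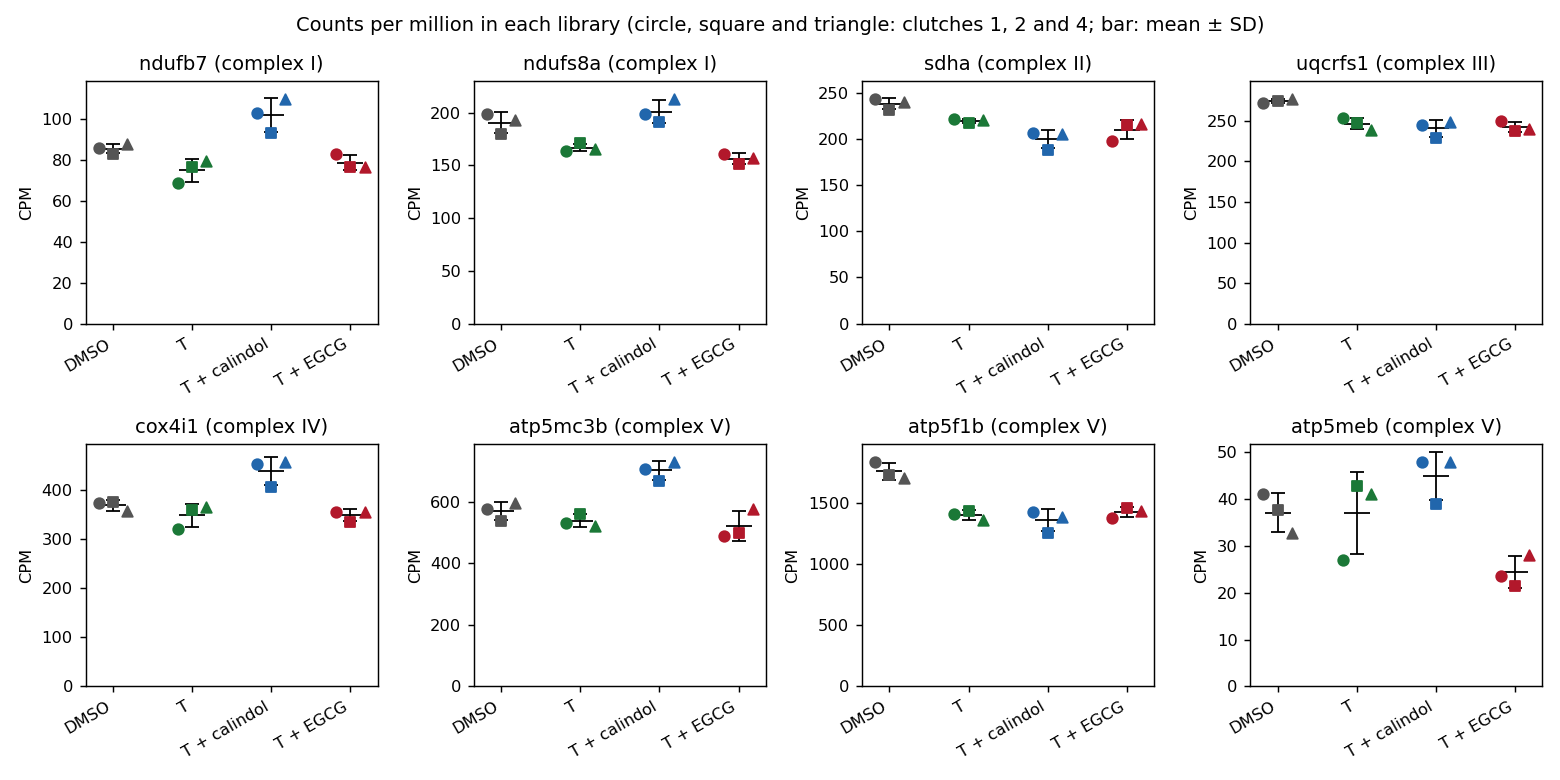
CPM of 8 subunits in each library, by group, with 1 marker per clutch and the mean ± SD of 3 libraries. The calindol libraries are the highest in ndufb7, cox4i1 and atp5mc3b, every exposed library is below every DMSO library in sdha, uqcrfs1 and atp5f1b, and the EGCG libraries are the lowest in ndufs8a and, with 1 testosterone library among them, in atp5meb.

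Few of the 12 tested associated genes, which are assembly factors and the inhibitor atp5if1a, were called. With calindol against testosterone 2 rose and 1 fell (11% and 14.8% of all genes), and in EGCG against calindol 3 were lower and 1 higher (22% and 21.1% of all genes), shares near the background; their difference from the subunits was not tested. ndufaf2, an assembly factor of complex I, was at 2.55, 3.85 and 2.97 CPM with testosterone and 7.81, 4.76 and 5.1 CPM with calindol, a rise of 0.90 ± 0.23 (adjusted p = 0.0091) that held under all 20 alternatives. ndufaf1, which takes part in building the membrane arm, rose by 0.30 ± 0.091 (adjusted p = 0.0259), which was lost without the testosterone library of clutch 1 (adjusted p = 0.065) or 4 (0.0649) or the calindol library of clutch 2 (0.0508) or 4 (0.0845). sdhaf2, which attaches the flavin to Sdha, was at 10.5, 6.18 and 10.7 CPM with testosterone and 6.51, 1.06 and 0.369 CPM with calindol, so the calindol libraries themselves disagreed. Its decrease of -1.77 ± 0.57 (adjusted p = 0.0326) was lost without the testosterone library of clutch 1 (adjusted p = 0.0757) or 4 (0.0896) or the calindol library of clutch 2 (0.108) or 4 (0.0784). The ATP synthase inhibitor atp5if1a, at 56.1 to 73.3 CPM, was called in none of the 6 comparisons.

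Some subunit genes carry symbols that the rule does not match, and they were looked at after the rest. COX5B, NDUFB1 and COX7A2 (1 of many), listed in capitals, rose with calindol against testosterone by 0.22 ± 0.062, 0.39 ± 0.08 and 0.51 (adjusted p = 0.0148, 0.00287 and 0.00129). The other 3 of these 6 genes were not called there: zgc:193541, which the reference table names atp5mj, had a log2 fold change of 0.16 (adjusted p = 0.0699), another, which it names ndufc1, one of 0.08 (adjusted p = 0.632), and CABZ01070469.1, a second gene named COX5B, one of -0.34 (adjusted p = 0.331). The cytochrome c1 gene cyc1, also part of complex III, had a log2 fold change of -0.0041 in that comparison and fell with EGCG against DMSO (-0.21 ± 0.064, adjusted p = 0.0396). The alternative settings were not run for these genes.

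Some known transcriptional regulators of these genes changed in the opposite direction, while most of those listed were not called. Of 14 regulators of mitochondrial biogenesis and mitochondrial DNA, 0 rose and 5 fell with calindol against testosterone (11% and 14.8% of all genes), with a median log2 fold change of -0.22, and 6 were higher and 0 lower in EGCG against calindol (21.1% and 22% of all genes); at an unadjusted p under 0.05 the counts were the same, as they were with DESeq2. ppargc1a, which encodes the coactivator PGC-1 alpha, was at 28.4, 26.6 and 33.9 CPM with DMSO, 30.1, 23.4 and 23.1 CPM with testosterone, 14.4, 18.9 and 17.4 CPM with calindol and 41.6, 39.2 and 34.5 CPM with EGCG. The calindol libraries were the lowest and the EGCG libraries the highest. It fell with calindol by -0.81 ± 0.14 against DMSO (adjusted p = 0.000478) and was higher with EGCG than with calindol by 1.18 ± 0.14 (adjusted p = 1.01e-05). ppargc1b and pprc1, of the same family, fell with calindol against testosterone by -0.43 ± 0.067 and -0.55 ± 0.10 (adjusted p = 0.000425 and 0.00121), as did nrf1 (-0.36 ± 0.08, adjusted p = 0.00477). nrf1 had risen with testosterone against DMSO (0.44 ± 0.08, adjusted p = 0.00414). All calls given here for these 4 genes held under all 20 alternatives.

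Other mitochondrial genes moved in part with the subunits. Of 14 tested tricarboxylic acid cycle genes outside complex II, 5 rose and 1 fell with calindol against testosterone (11% and 14.8% of all genes), and 8 were lower and 1 higher in EGCG against calindol (22% and 21.1% of all genes). mdh2, the mitochondrial malate dehydrogenase, was at 541, 557 and 559 CPM with testosterone and 685, 640 and 681 CPM with calindol, a rise of 0.28 ± 0.061 (adjusted p = 0.00423). idh3b, a subunit of the NAD-dependent isocitrate dehydrogenase, was at 21.6, 26.7 and 20.3 CPM with DMSO, 8.52, 14.2 and 8.17 CPM with testosterone, 27, 16.7 and 22.3 CPM with calindol and 6.64, 6.75 and 9.47 CPM with EGCG. Its testosterone and EGCG libraries lay below those of both other groups, and it fell by -1.15 ± 0.22 with testosterone against DMSO (adjusted p = 0.006). slc25a5, which exchanges ADP for ATP across the inner membrane, rose with calindol by 0.45 ± 0.068 against DMSO (adjusted p = 0.00022) and 0.28 ± 0.068 against testosterone (adjusted p = 0.00702). The other 3 tested adenine nucleotide and phosphate carriers were not called in these comparisons. The median log2 fold change of all 4 was -0.18 against DMSO, with 3 below 0, and -0.055 against testosterone. higd1a, a small protein bound to complexes III and IV that is induced at low oxygen in mammals, was at 26.5, 29.9 and 33.2 CPM with DMSO and at 41 to 51.6 CPM in the 9 exposed libraries, and rose in each exposed group by 0.66 to 0.70. Of 63 mitochondrial ribosomal proteins, 2 rose and 1 fell with calindol against testosterone, smaller shares than those of all genes (11% and 14.8%). In EGCG against calindol 14 were lower and 2 higher (22% and 21.1% of all genes). The share lower was thus that of all genes, and the share higher was smaller. Among 16 tested complex IV assembly genes, 0 rose and 2 fell with calindol against testosterone, and the 12.5% lower was near the 14.8% of all genes. These 2 were sco1 (-3.02, adjusted p = 0.000427 by edgeR) and cox15 (-1.38, adjusted p = 0.00108), and both calls held under all 20 alternatives. The median log2 fold change of the 16 was 0.076.

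Gene groups outside mitochondria moved with the subunits in some comparisons. Cytosolic ribosomal proteins rose with calindol: 57 of 78 against testosterone (11% of all genes) and 63 against DMSO (11.5%), and 60 were lower with EGCG than with calindol (22%). With testosterone alone 0 of them fell and 0 rose (10 higher and 0 lower at an unadjusted p under 0.05, and 2 higher by DESeq2), with a median log2 fold change of 0.10 where the subunits had -0.12. Among 30 tested glycolysis genes, 5 fell and 0 rose with testosterone against DMSO (3.39% and 2.93% of all genes), with a median log2 fold change of -0.142. With calindol against testosterone 6 of them rose and 0 fell (11% and 14.8% of all genes), with a median of 0.0435. With calindol against DMSO 3 of them rose and 11 fell (11.5% and 15.9% of all genes). The median there was -0.14, where the subunits had 0.13. In EGCG against calindol 7 were lower and 6 higher (22% and 21.1% of all genes). Of 38 proteasome subunits, 1 rose and 3 fell with calindol against testosterone (11% and 14.8% of all genes). With EGCG, 22 fell against DMSO (9.33% of all genes), and 12 fell and 0 rose against testosterone (5.59% and 6.05%). In EGCG against calindol 25 were lower and 2 higher (22% and 21.1% of all genes), with a median log2 fold change of -0.37.

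**Figure D4:**
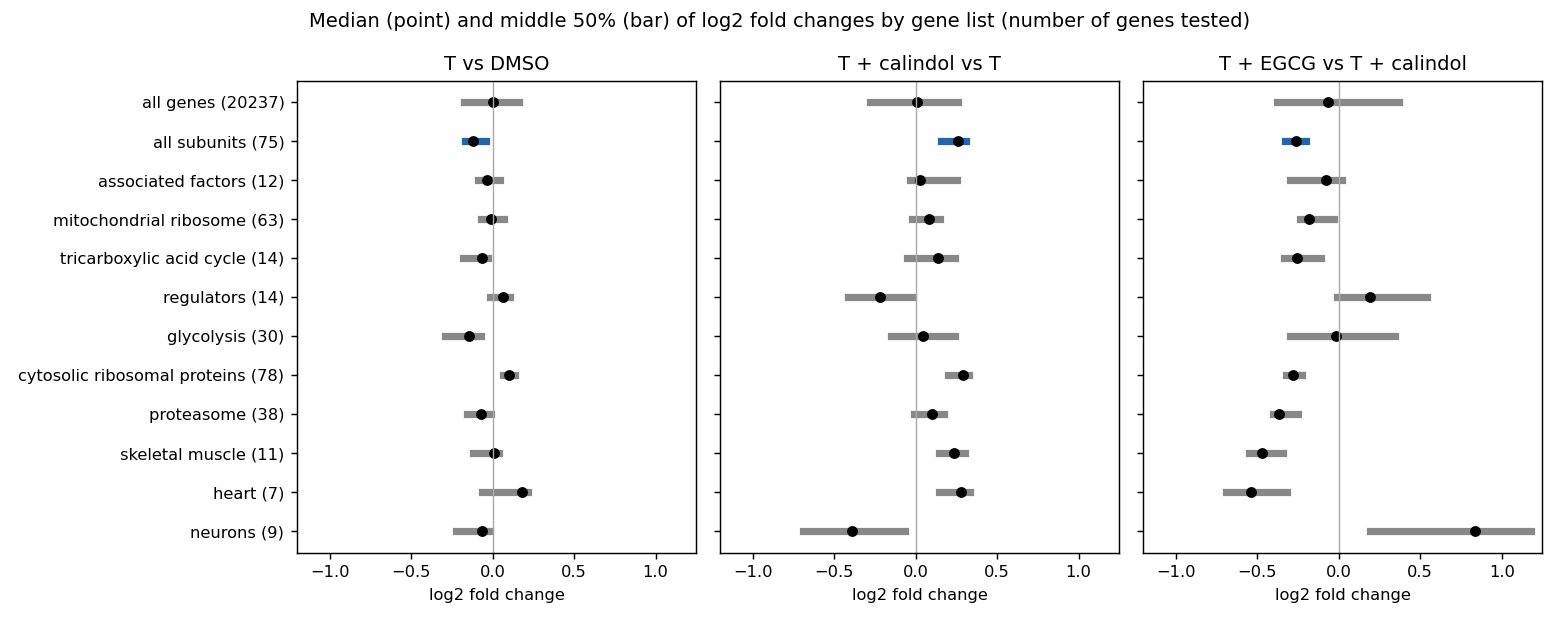
Median (point) and interquartile range (bar) of the log2 fold changes of gene lists in 3 comparisons, with the number of genes tested in brackets and the oxidative phosphorylation subunits in blue. In calindol against testosterone the subunits (0.26) and cytosolic ribosomal proteins (0.29) lie right of the median of all genes and the regulators (-0.22) and neuronal markers (-0.39) left of it; in EGCG against calindol these orders turn.

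Among markers of tissues rich in mitochondria, those of muscle and heart moved with the subunits in some comparisons, and those of neurons did not. Photoreceptor markers were lower with testosterone than with DMSO, as the subunits were. Unlike the subunits, they were not higher with calindol than with testosterone. The summed level of skeletal muscle markers, with 15 identifiers in the table and none at 0, was 68500 to 71400 CPM with DMSO, 62300 to 74300 with testosterone, 74000 to 85400 with calindol and 54200 to 62300 with EGCG. Heart markers (7 identifiers, none at 0) summed to 181 to 194, 187 to 205, 224 to 256 and 162 to 176 CPM in the same order. Of 11 tested muscle markers 5 rose and 0 fell with calindol against testosterone (11% and 14.8% of all genes) and 10 were lower with EGCG than with calindol (22%). Of 7 heart markers 1 rose and 0 fell with calindol against testosterone (11% and 14.8% of all genes), the share higher being near the background. In EGCG against calindol 6 of them were lower (22% of all genes). Neuronal markers (9 identifiers, none at 0) went the other way, at 2840 to 2940 CPM with DMSO, 2520 to 2970 with testosterone, 1870 to 2480 with calindol and 3260 to 3560 with EGCG. Photoreceptor markers (5 identifiers, none at 0) summed to 2290 to 2350 CPM with DMSO, 583 to 1730 with testosterone, 520 to 1310 with calindol and 1760 to 2300 with EGCG. With testosterone against DMSO 1 of these 5 fell and 0 rose (3.39% and 2.93% of all genes), with a median log2 fold change of -0.886. Between DMSO and testosterone the muscle and heart marker sums overlapped and the photoreceptor sums did not. The part of tissue composition in the subunit differences was not tested.

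The calls also depended on how gene span was treated. The tested subunits had a median genomic span, introns included, of 5.4 kb, compared with 19.7 kb for the 87.6% of tested genes with a span, and libraries differed in a smooth trend of counts over span. With each library's trend removed, 24 of the 39 subunits that rose with calindol against testosterone were called (12 in complex I, 7 in complex V, 5 in complex IV, and 0 in complexes II and III), and 18 of the 52 that were lower with EGCG than with calindol. The median log2 fold change of EGCG against calindol went from -0.26 to -0.13. Of the 136 calls made over the 6 comparisons for subunits and associated factors, 67 kept their call, 69 lost it and 0 changed direction. ndufb7, ndufa6, ndufs3, cox4i1, atp5mc3b, atp5f1c and ndufa4l were among those called for calindol against testosterone under both settings. The decreases of atp5f1b, atp5fa1 and sdha against DMSO kept their calls with the trend removed.

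**Figure D5:**
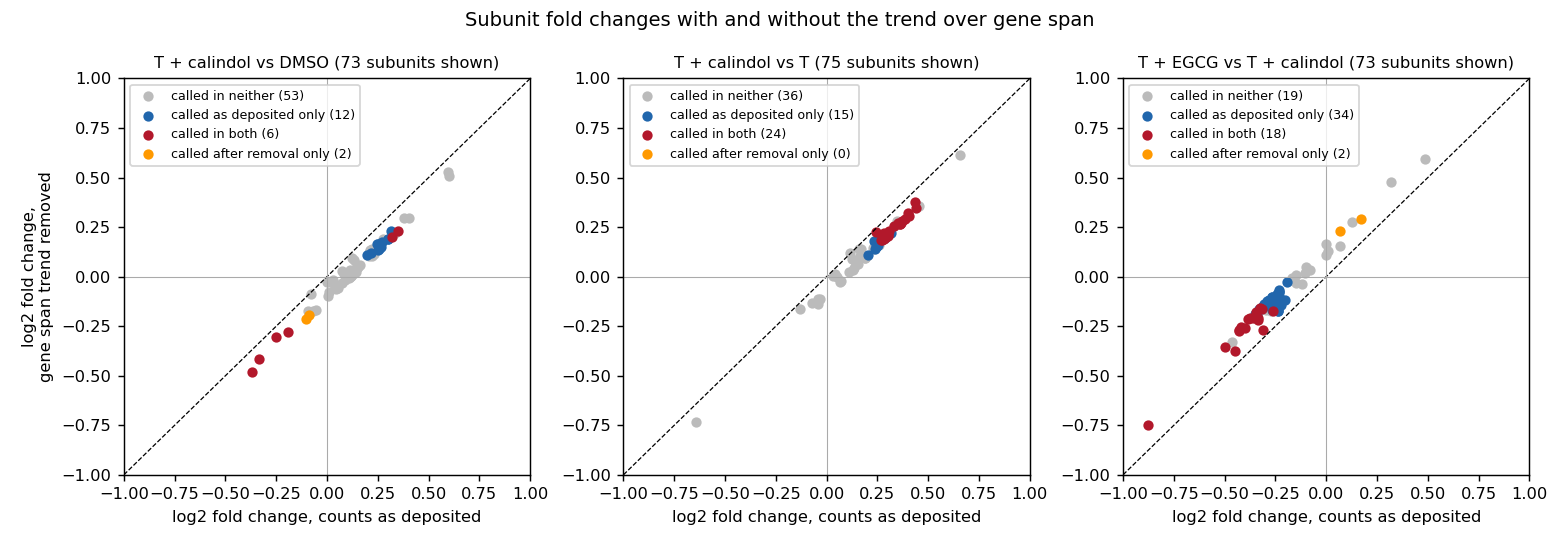
Log2 fold change of each tested subunit from the counts as deposited (x axis) and with each library's trend over gene span removed (y axis), in 3 comparisons, with colours for the calls and a dashed line of equality; values beyond 1 in size are outside the axes. Points lie below the line in both comparisons of the calindol group and above it in EGCG against calindol. Removal thus shifted nearly all subunits by a similar amount. Most moved toward or past 0, and those already on the other side moved away from it.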

How the data were processed

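Poly(A) RNA of whole embryos (the number per library is not given in the sources used here) was sequenced in directional libraries, per the labels' protocols. The deposited values are raw counts per gene, in 1 table of 12 libraries; the submitters' processing notes name Trim Galore 0.6.10, STAR 2.7.1a, featureCounts and the build GRCz11. The annotation release, the strand setting and the handling of multi-mapping reads are not given in the sources used here, so counts of close paralogs are uncertain.

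Genes were kept by filterByExpr (minimum count 10), scaled by TMM and fitted with edgeR 4.0.16 (R 4.3.3) without a clutch block on all 12 libraries, which share 1 estimate of spread; p-values were adjusted by Benjamini-Hochberg over 20237 genes and called under 0.05. Errors of log2 fold changes are standard errors, with n = 3 libraries a group. They were derived from the quasi-likelihood test, as the absolute log2 fold change over the square root of its F statistic. The scripts were tested on simulated data. The labels' clutch number marks a shared clutch, so it pairs libraries; deviations from the group means of same-clutch libraries had a mean correlation of 0.0045 (-0.097 to 0.11, 18 pairs), and those of other pairs -0.002 (-0.24 to 0.24, 36 pairs). Gene span came from the RefSeq table of build GRCz12tu, matched by symbol or synonym, and was used only as a length; its trend in each library was removed as an offset. Alternatives were DESeq2 1.42.0, 2 other scalings, no filter, the clutch block, span removal with and without the block, a fit on the 6 libraries compared, a minimum log2 fold change of 0.5 and each library left out. Where a lost call is given with the libraries left out, other alternatives are not listed there, and some of these calls were lost under those too.

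The members and gene lists were chosen with earlier results of these data known. Members were named by change (the 3 largest called log2 fold changes each way), isoform families and core subunits; a rule by level per length could not be applied, since the table has no gene length, and members outside the rule were chosen after their values were seen. One result is not reported here. No sequences are shown.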

Additional observations from a re-analysis of the deposited data

How the results depend on the processing

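Directions of the 136 calls of subunits and associated factors were the same under all 20 alternatives that gave a gene an adjusted p, and 48 calls kept an adjusted p under 0.05 in all of them. Counts below are subunits, with all 101 genes in brackets. With the span trend removed, calindol against DMSO gave 2 higher (8 called, median log2 fold change 0.0281), calindol against testosterone 24 higher (26), EGCG against testosterone 1 lower (1), and EGCG against calindol 18 lower and 2 higher (24, median -0.128). With the span trend removed and the clutch block added, these were 2 (7, median 0.0278), 19 (21), 0 (0), and 17 and 3 (22, median -0.127), and EGCG against DMSO gave 8 lower (8). The replicate block alone gave 1 lower (1) in EGCG against testosterone and moved no other count of subunits by over 1.5 times. On the 6 libraries compared, EGCG against DMSO gave 24 lower and 2 higher (26), calindol against testosterone 25 higher (26) and EGCG against testosterone 0 (0). DESeq2 called 5 lower (5) in testosterone against DMSO. EGCG against testosterone gave 1 lower (1) with DESeq2 size factors, library totals or no filter, and EGCG against calindol 1 higher with DESeq2 size factors, library totals or the DESeq2 test, and 34 lower with library totals (median -0.209). A minimum log2 fold change of 0.5 left 0 (0) in testosterone against DMSO, 0 (0) in calindol against DMSO, 1 lower (1) in EGCG against DMSO, 0 higher (2) in calindol against testosterone, 1 lower (1) in EGCG against testosterone and 1 lower (3) in EGCG against calindol. The cause of these shifts was not tested, except that the fits on 6 libraries and the minimum fold by construction used fewer libraries or kept fewer calls.

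Leaving out 1 library at a time, the counts ranged as follows. Testosterone against DMSO gave 1 to 4 lower (1 to 4) with a median of -0.132 to -0.0997. Calindol against DMSO gave 6 to 18 higher and 3 to 4 lower (9 to 23), median 0.115 to 0.181. EGCG against DMSO gave 5 to 18 lower and 0 to 1 higher (5 to 18), median -0.154 to -0.117. Calindol against testosterone gave 29 to 43 higher (30 to 46), median 0.239 to 0.294. EGCG against testosterone gave 0 to 2 lower and 0 to 2 higher (0 to 4), median -0.0455 to 0.00367. EGCG against calindol gave 39 to 54 lower and 0 to 1 higher (42 to 58), median -0.305 to -0.254. The shallowest library, at 8181295 counts, held a median of 800 counts per tested subunit. The low genes cox6a2, cox7a1, ndufs7, uqcrb and sdhda had few counts there, and whether depth or the 3 libraries a group limited their tests was not tested.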
